A study of Mus musculus with 24 samples.

Results

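This account concerns macrophages from a pair of sources after 12 days of co-culture, in 6 of the 24 bulk RNA sequencing libraries of a mouse study. The members were taken by the library titles: 3 libraries titled as day 12 macrophages made from pluripotent stem cells that were induced by reprogramming (iPSC), and 3 titled as bone marrow-derived macrophages at day 12, all labelled as co-cultured. Across the series the 24 libraries form 8 groups of 3 replicates, which the design text calls independent without saying what separates them, with both sources sampled at day 0 without co-culture and at days 3, 6 and 12 with it. The design text names the cells iMac/iMicro and BM-Mac/BM-Micro. The partner cells of the co-culture, the mouse strain, the age and sex of the animals, and the iPSC line or clone are not given in the sources used here. The source of the cells and any difference in genetic background, clone, culture history or library batch therefore cannot be told apart. Library names share the same number series, with the iPSC-derived libraries before the bone marrow-derived ones and no lane or date. The iPSC-derived names run by replicate across the days, and the bone marrow-derived names run by day. Whether a replicate was followed across days is not given, and the main tests used no pairing.

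Macrophages are phagocytes of the innate immune system. Those grown from bone marrow descend from definitive haematopoiesis through monocytes, whereas macrophages grown from pluripotent cells in culture resemble the primitive, yolk sac-type wave that gives rise to microglia, the macrophages of the brain. Macrophages take on much of their expression programme from the tissue around them, and the series title presents primitive macrophages made from iPSC as a way to model how resident macrophages form and function. At day 12 the comparison asks what separates the 2 sources after the same length of co-culture.

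The 6 libraries held between 9041539 and 11805478 counts and between 16265 and 18321 genes with at least 1 count, and mitochondrial genes took 3.332% to 5.179% of counts. Levels are CPM (a gene's counts scaled to a common library size), on library sizes scaled by the trimmed mean of M values (TMM), listed for replicates 1, 2 and 3 of each source in that order. CPM are not divided by gene length, so levels are compared between libraries and not between genes. A difference is the log2 fold change of iPSC-derived over bone marrow-derived cells at day 12 with its standard error. That error was computed from the fold change and the F statistic of the test, so it is approximate where counts or differences are very small. A gene is called higher or lower (in the iPSC-derived cells) at an adjusted p below 0.05. The test is the edgeR quasi-likelihood test with Benjamini-Hochberg adjustment over 15000 genes. In bulk libraries, fewer cells of a type and less RNA per cell cannot be told apart. Nothing says whether replicates came from separate animals or iPSC cultures, so p-values measure the spread between these libraries.

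Both sets of libraries carried macrophage transcripts. None of 9 macrophage markers was at 0 in either source, and their summed level ran from 13245 to 32536 CPM in the iPSC-derived and from 25825 to 29988 CPM in the bone marrow-derived libraries. Adgre1, which encodes the F4/80 antigen, stood at 1292, 1029.9 and 1469.7 CPM in the iPSC-derived and 1739, 1696 and 1549 CPM in the bone marrow-derived libraries, a difference that did not pass the test (-0.39 ± 0.14, edgeR adjusted p = 0.074). Of the 9, 3 were called lower in the iPSC-derived cells: the pan-leukocyte phosphatase Ptprc (CD45), the integrin Itgam (CD11b) and the calcium-binding protein Aif1 (IBA1). Ptprc measured 381, 419 and 339.9 CPM against 836, 711 and 625 CPM, with no overlap between the groups and a difference of -0.93 ± 0.15. Aif1 measured 53.8, 39.2 and 72.4 CPM against 159.9, 163 and 239 CPM, also without overlap.

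**Figure D1:**
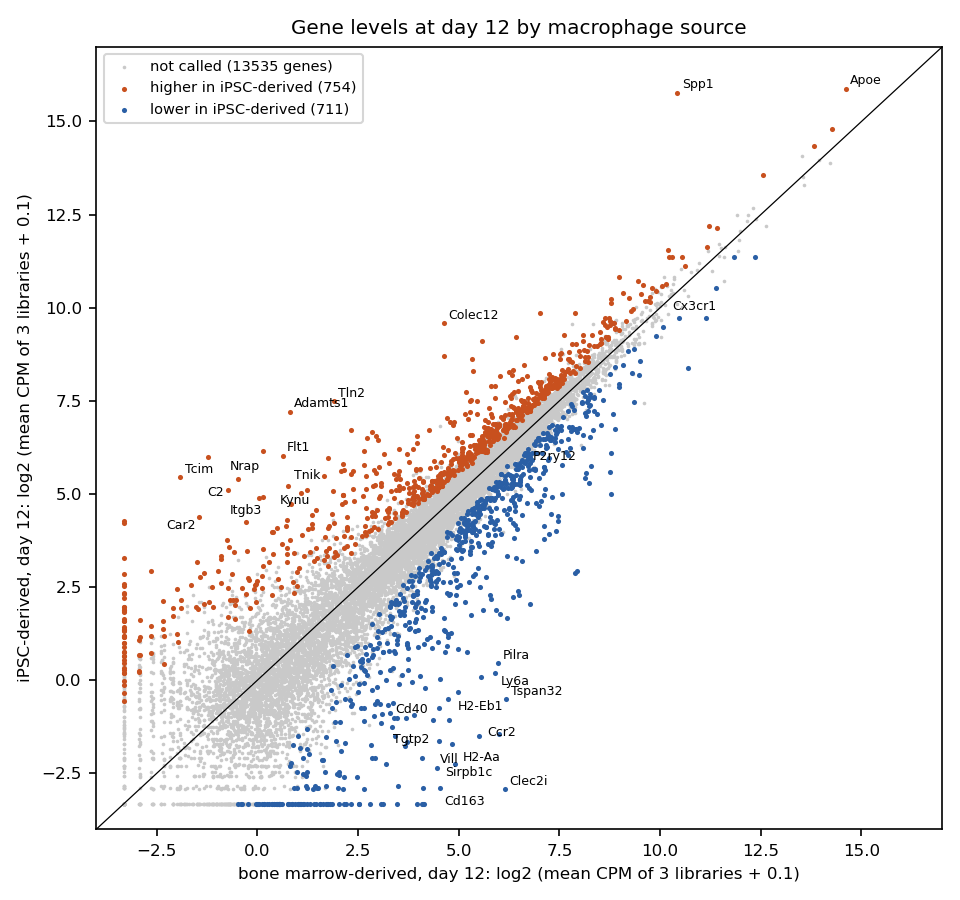
Each point is 1 of 15000 tested genes, with its level in the bone marrow-derived cells on the x axis and in the iPSC-derived cells on the y axis, as log2 of the mean CPM of 3 day 12 libraries plus 0.1. Orange points are the 754 genes called higher in the iPSC-derived cells and blue points the 711 called lower; Spp1 and Apoe lie above the diagonal at the high end, and Clec2i, Cd163 and H2-Aa lie far below it.

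At day 12, 1465 of 15000 genes differed between the sources, which is 9.77%. Of these, 754 (5.03%) were higher and 711 (4.74%) lower in the iPSC-derived cells. The counts given for each gene list below are to be read beside these shares. The split depended on the scaling: without TMM factors 416 genes were higher and 1235 lower, and the median difference over all genes moved from -0.03 to -0.25. Genes whose 3 iPSC-derived and 3 bone marrow-derived libraries did not overlap numbered 3921 (26.1%), called or not, and 1396 (9.31%) were also called. The iPSC-derived libraries varied more among themselves, with a median standard deviation (SD) of 0.397 in log2 CPM against 0.302 for the bone marrow-derived ones.

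Spp1, which encodes osteopontin, a secreted integrin ligand, had the highest level among the genes called with a difference over 3. It stood at 48289.8, 103984 and 16139 CPM in the iPSC-derived libraries and at 1575, 1371 and 1193 CPM in the bone marrow-derived ones, and took 4.45%, 9.3% and 1.61% of all counts in the former against 0.132% to 0.174% in the latter. The groups did not overlap, the iPSC-derived libraries spread over a wide range, and the difference was 5.35 ± 0.46 (edgeR adjusted p = 1.7e-07). Apoe, the main lipid carrier apolipoprotein of macrophages and glia, also separated the groups, at 60185, 80288 and 40886 CPM against 21564, 26721 and 26455 CPM (1.28 ± 0.18).

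The 12 largest higher genes with at least 20 CPM in the iPSC-derived cells were Tcim, Adamts1, Car2, Nrap, C2, Tln2, Flt1, Spp1, Itgb3, Colec12, Kynu and Tnik, with differences between 4.55 and 7.97. Adamts1 (chromosome 16, 85793827 to 85803113, GRCm38), a secreted metalloprotease that cleaves proteoglycans, read 141, 203 and 100.3 CPM against 2.51, 1.19 and 1.26 CPM (6.48 ± 0.37, edgeR adjusted p = 2.2e-11). Colec12, a scavenger receptor with a collagen-like stalk, read 855, 871 and 591 CPM against 27.4, 24.9 and 22.5 CPM (4.95 ± 0.29). In both genes every iPSC-derived library lay far above every bone marrow-derived one. Flt1, a receptor for vascular endothelial growth factor, read 64.4, 99.5 and 31.7 CPM against 1, 1.88 and 1.44 CPM (5.48 ± 0.89). Itgb3, the beta3 integrin chain that pairs with the alpha V chain, read 28.9, 37.2 and 23.2 CPM against 1, 0.595 and 1.17 CPM (4.98 ± 0.92). Tln2, the second talin, which links integrins to actin, read 149, 136 and 251 CPM against 3.21, 6.34 and 1.26 CPM (5.64 ± 0.43). Lack of overlap between the groups was a condition for entry to the 12, so it adds nothing to their calls. Some of the 12 were uneven across the iPSC-derived libraries, among them Spp1, Tcim, at 39.3, 75.8 and 16.2 CPM against 0, 0.496 and 0 CPM, and Car2, carbonic anhydrase, at 17.1, 43.6 and 1.72 CPM against 0.702, 0.0991 and 0 CPM.

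In the other direction, the 12 largest by the same rule were Clec2i, Cd163, H2-Aa, Sirpb1c, Ccr2, Vill, Tspan32, Tgtp2, H2-Eb1, Ly6a, Pilra and Cd40. Clec2i (chromosome 6, 128887588 to 128898167), a lectin-like ligand of natural killer cell receptors, had 0, 0.0948 and 0 CPM in the iPSC-derived and 69.5, 66.4 and 74.9 CPM in the bone marrow-derived libraries. This is 1 count over the 3 iPSC-derived libraries against 2196, a ratio of 2030 with a 95% counting interval from 363 to 80100. Cd163 (chromosome 6, 124304656 to 124330527), the haemoglobin-haptoglobin scavenger receptor of resident macrophages, had 0, 0 and 0.101 CPM against 24.3, 26.3 and 18.2 CPM, or 1 count against 709 (ratio 654, interval 117 to 25900). Counting intervals cover sampling of reads only. Ccr2 (chromosome 9, 124101950 to 124113557), the receptor that draws monocytes out of the marrow towards CCL2, had 0.479, 0.19 and 0.101 CPM against 45.7, 45.7 and 43.4 CPM (-7.44 ± 0.63, edgeR adjusted p = 1.1e-08). Vill, a villin-like actin-binding protein, had 0, 0 and 0.607 CPM against 30.7, 26.9 and 27.7 CPM, and Tspan32, a tetraspanin of blood cells, had 1.2, 0 and 0.607 CPM against 68.96, 76.5 and 72.2 CPM. All 5 genes were near 0 in the iPSC-derived libraries and even across the bone marrow-derived ones.

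Several genes had no count in any iPSC-derived library. With 3 counts over the group as the floor, the bone marrow-derived level was at least 103-fold higher for Napsa, an aspartic protease, at least 80.9-fold for the orphan receptor Gpr141, at least 64.6-fold for the integrin chain Itgb7 and at least 42.2-fold for Spic, a transcription factor of red pulp macrophages. Napsa stood at 9.92, 15.4 and 7.29 CPM and Itgb7 at 7.42, 7.63 and 5.31 CPM in the bone marrow-derived libraries. Sirpb1c, Pilra, Ly6a and Tgtp2 belong to families of near-identical copies whose reads can be split or lost by counting, so their values are uncertain.

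**Figure D2:**
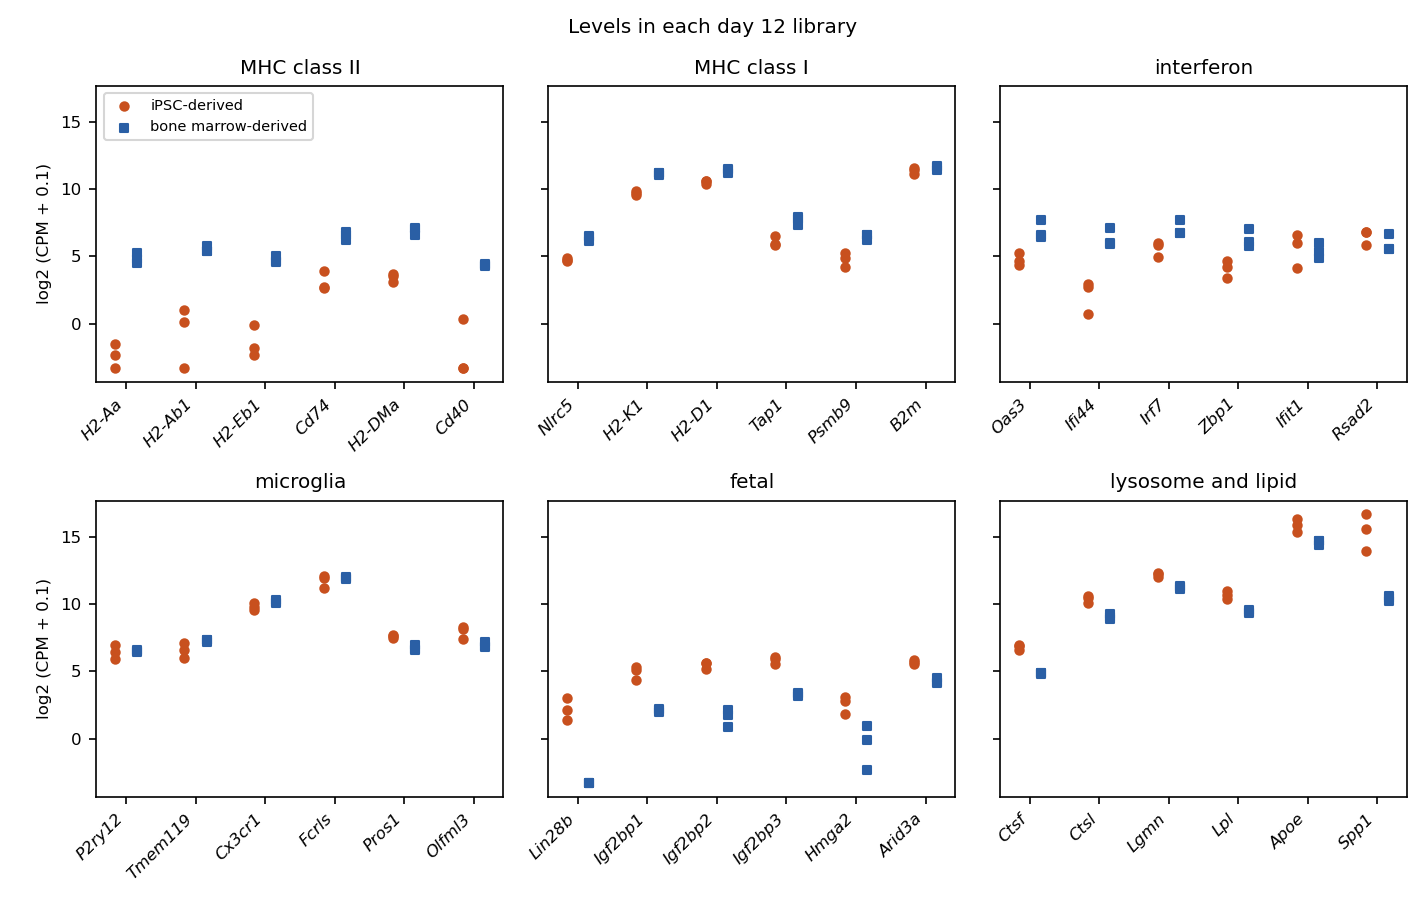
Levels of selected genes in each of the 6 day 12 libraries, in 6 panels by gene group, as log2 of CPM plus 0.1 on the y axis, with iPSC-derived libraries as orange circles and bone marrow-derived libraries as blue squares. Every circle lies below every square for H2-Aa, H2-K1 and Oas3 and above every square for Pros1, Igf2bp3, Ctsf and Spp1, whereas P2ry12, Fcrls, Ifit1 and B2m overlap.

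Proteins of the major histocompatibility complex (MHC) class II present peptides from engulfed material to helper T cells. They are made as alpha and beta chains, held by the invariant chain CD74 and loaded with peptide by the DM molecules. Of 13 tested genes in this list, 9 were lower and 1, the costimulatory ligand Cd86, higher, with a median difference of -1.82 against -0.03 over all genes. H2-Aa (chromosome 17, 34282744 to 34287827), the alpha chain of I-A, read 0.24, 0.0948 and 0 CPM in the iPSC-derived and 27.6, 38.6 and 22.8 CPM in the bone marrow-derived libraries, 3 counts against 918 (ratio 282, 95% counting interval 96.4 to 1370). H2-Ab1, its beta chain, read 0.959, 1.9 and 0 CPM against 42.7, 55.03 and 42.5 CPM (-5.57 ± 0.70), and H2-Eb1, the beta chain of I-E, 0.839, 0.19 and 0.101 CPM against 25.2, 32.9 and 23.4 CPM (-6.22 ± 0.73). The 3 chains were thus at or near the floor in iPSC-derived cells and present at over 20 CPM in every bone marrow-derived library. Cd74 kept a low level in the iPSC-derived cells, 6.11, 14.6 and 6.47 CPM against 98.2, 114 and 73.8 CPM (-3.38 ± 0.45, edgeR adjusted p = 3.6e-05). H2-DMa read 11.5, 12.98 and 8.5 CPM against 97.1, 135 and 131 CPM (-3.46 ± 0.23). Neither of these overlapped between the groups. Cd40, the receptor through which T cells signal to antigen-presenting cells, read 0, 1.14 and 0 CPM against 20.1, 21.6 and 19.2 CPM (-5.60 ± 0.75). Ciita, the coactivator that switches on class II genes, was scarce in both, at 0.36, 1.14 and 0 CPM against 1, 1.29 and 1.17 CPM, and its difference did not pass the test (-1.17 ± 0.97, edgeR adjusted p = 0.54).

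Within the class II list, 3 calls depended on single libraries. Cd86 (0.81 ± 0.24) was not called without iPSC-derived replicate 3 (edgeR adjusted p = 0.18), bone marrow-derived replicate 2 (0.16) or replicate 3 (0.084), nor without TMM factors (0.13). Cd80 (-1.36 ± 0.38) was not called without iPSC-derived replicate 1 or 3 or bone marrow-derived replicate 1 or 3 (edgeR adjusted p from 0.059 to 0.11). The protease Ctss (-0.46 ± 0.14) was not called without iPSC-derived replicate 1 or 3 or bone marrow-derived replicate 2 or 3 (edgeR adjusted p from 0.097 to 0.18).

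The RefSeq promoter of H2-Aa is printed because class II genes are known to be switched on through conserved boxes close to the start site. The window runs from 250 bases before to 50 bases after the annotated start on the minus strand (GRCm38.p6, chr17:34287774-34288073). Capitals mark TGACGTCA, the letters of a cyclic AMP response element, 74 to 67 bases before the start, and CTGATTGG, the letters of the Y box, 51 to 44 bases before it.
H2-Aa promoter: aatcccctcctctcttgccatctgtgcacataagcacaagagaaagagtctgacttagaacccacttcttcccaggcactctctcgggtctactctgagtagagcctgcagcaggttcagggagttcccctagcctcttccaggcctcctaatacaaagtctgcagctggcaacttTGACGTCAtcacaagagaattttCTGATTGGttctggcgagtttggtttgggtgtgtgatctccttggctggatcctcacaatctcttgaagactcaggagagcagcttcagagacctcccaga
Both motifs were searched on both strands and do not overlap here. The Y box letters were in 3 of 8 class II list promoters (H2-Aa, H2-Eb1 and H2-Oa), in 6.57% of 10618 tested genes with a promoter and in 4.1% of all 32851 windows. They were in 31 of 577 higher genes (5.37%) and 33 of 529 lower genes (6.24%). TGACGTCA was in 1 of 8 class II list promoters (H2-Aa), 3.48% of tested, 5.03% of higher and 2.08% of lower genes and 1.79% of all windows. A match describes letters only.

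MHC class I molecules show peptides from inside the cell to cytotoxic T cells, and need the immunoproteasome to cut the peptides and the TAP transporter to carry them. Of 16 tested class I genes, 9 were lower and none higher, with a median of -0.87; without any 1 library the number lower was 9 to 11. H2-K1, a classical heavy chain, read 913, 773 and 839 CPM in the iPSC-derived and 2378, 2347 and 2086 CPM in the bone marrow-derived libraries (-1.43 ± 0.11, edgeR adjusted p = 3.3e-09). H2-D1, the other classical heavy chain, read 1523, 1545 and 1336 CPM against 2838, 2765 and 2403 CPM (-0.86 ± 0.11). The 3 values of each source lay close together and far from those of the other. Tap1 read 58.8, 56.95 and 92.6 CPM against 237, 215 and 159.7 CPM (-1.55 ± 0.21), and Psmb9, an immunoproteasome subunit, 29.5, 18.4 and 38.4 CPM against 74.4, 95.97 and 98.2 CPM (-1.64 ± 0.25). Nlrc5, the coactivator of class I genes, read 29.4, 26.1 and 25.5 CPM against 90.5, 69.1 and 87.97 CPM (-1.61 ± 0.25). B2m, the shared light chain, overlapped between the groups at 2687, 2184 and 2961 CPM against 2721, 3165 and 3406 CPM and was not called (-0.25 ± 0.23).

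Type I interferon induces many antiviral genes through a complex that contains the factors STAT2 and IRF9. Of 30 tested genes of this response, 8 were lower and none higher, with a median of -0.49. Without bone marrow-derived replicate 1, which had the highest level of most of these genes, 4 were lower, and without TMM factors 15. Oas3, a sensor of double-stranded RNA, read 37.5, 25.6 and 20.4 CPM in the iPSC-derived and 208, 96.4 and 87.4 CPM in the bone marrow-derived libraries (-2.23 ± 0.36, edgeR adjusted p = 0.00022). Ifi44 read 7.43, 6.54 and 1.52 CPM against 138, 61.6 and 64.6 CPM (-4.10 ± 0.50), and Ifi27l2a 15.9, 10.4 and 31.1 CPM against 246, 120.1 and 167 CPM (-3.21 ± 0.46). In these 3 genes the groups did not overlap, and replicate 1 was the highest of the bone marrow-derived libraries. Ifit1, a classical member, overlapped at 63.9, 97.7 and 17.6 CPM against 64.6, 39.1 and 29.9 CPM and was not called (0.43 ± 0.47), as were Ifit3 (0.35 ± 0.48) and Rsad2 (0.55 ± 0.27). Irf7, the factor that amplifies the response, was lower (-1.51 ± 0.37) but was not called without bone marrow-derived replicate 1 (edgeR adjusted p = 0.084) or iPSC-derived replicate 3 (0.051).

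Of 15 tested interferon-inducible GTPases, which attack the vacuoles of intracellular microbes, 6 were lower and none higher, with a median of -0.89. Gbp3 read 6.35, 10.5 and 5.16 CPM against 22.2, 16.2 and 24.2 CPM (-1.50 ± 0.29), and Ifi47 69.7, 59.4 and 30.2 CPM against 166, 136 and 111 CPM (-1.37 ± 0.33), both without overlap. Gbp2 read 10.9, 9.95 and 7.99 CPM against 33.4, 17.6 and 14.2 CPM (-1.18 ± 0.32) and was not called without bone marrow-derived replicate 1 (edgeR adjusted p = 0.19) or iPSC-derived replicate 3 (0.061).

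The promoters of Oas3 and Gbp2 are printed because they carry the core of the interferon-stimulated response element (ISRE), GAAA followed by any 2 bases and GAAA again, on either strand, which the interferon complex binds. Oas3 lies on the minus strand (GRCm38.p6, chr5:120777610-120777909) and has the core 75 to 66 bases before its start. Gbp2 lies on the plus strand (chr3:142620413-142620712) and has it in reverse complement 59 to 50 bases before. Capitals mark the core.
Oas3 promoter: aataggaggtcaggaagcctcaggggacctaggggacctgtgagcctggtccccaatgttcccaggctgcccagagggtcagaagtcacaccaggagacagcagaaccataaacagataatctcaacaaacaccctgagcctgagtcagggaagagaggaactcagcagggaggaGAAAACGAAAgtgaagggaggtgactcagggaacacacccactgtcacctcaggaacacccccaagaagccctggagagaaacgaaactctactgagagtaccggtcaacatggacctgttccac
Gbp2 promoter: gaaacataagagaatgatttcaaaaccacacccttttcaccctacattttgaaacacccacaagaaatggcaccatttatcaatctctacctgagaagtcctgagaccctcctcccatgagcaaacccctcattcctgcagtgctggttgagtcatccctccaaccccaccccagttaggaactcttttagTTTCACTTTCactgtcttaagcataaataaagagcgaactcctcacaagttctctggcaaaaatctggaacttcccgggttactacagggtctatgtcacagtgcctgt
Of 529 genes called lower that have a RefSeq promoter, 66 (12.5%) held the core, against 18 of 577 higher genes (3.12%), 426 of 10618 tested genes (4.01%) and 3.44% of all windows. It was in 13 of 21 promoters of the interferon list and 9 of 10 of the GTPase list. The 66 genes also included members of the Pilr and Sirpb1 families, whose copies share sequence. The letters of a second interferon element, TTCNNNGAA, were in 9.45% of lower, 6.76% of higher and 8.15% of all tested promoters. These shares are descriptions with no test.

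**Figure D3:**
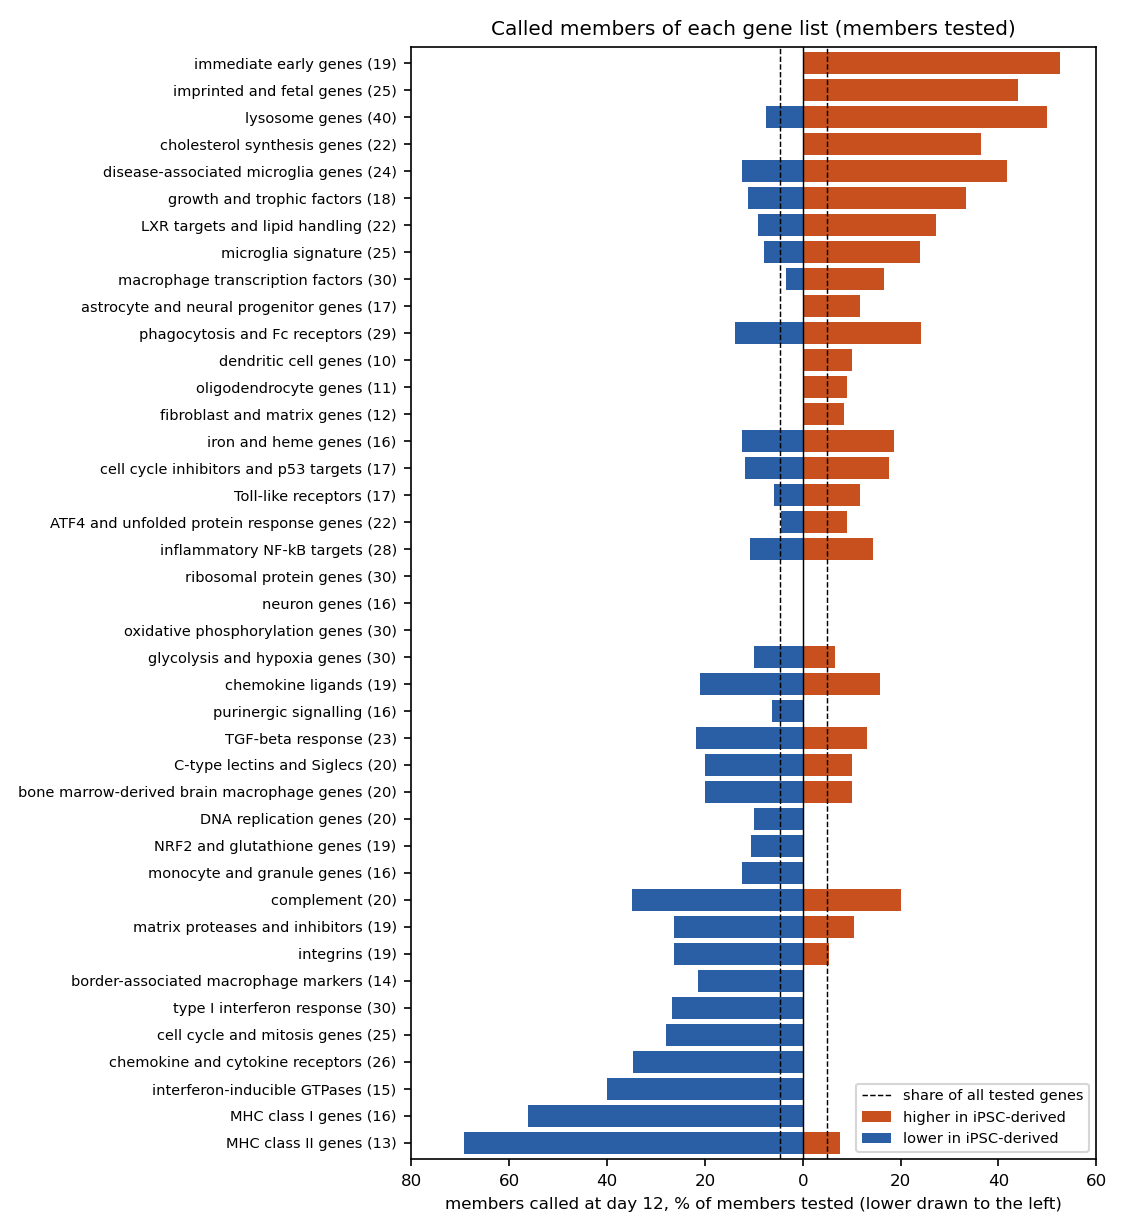
Bars give, for each gene list with at least 10 tested members, the percentage of members called higher (orange, to the right) and lower (blue, to the left) in the iPSC-derived cells at day 12, with the number tested in brackets and dashed lines at the shares of all tested genes (5.03% and 4.74%). The longest bars to the left are those of MHC class II (9 of 13) and class I (9 of 16), and the longest to the right those of the immediate early (10 of 19) and lysosome genes (20 of 40).

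Microglia are told from other macrophages by genes such as the purinergic receptor P2ry12, the fractalkine receptor Cx3cr1 and the transcription factor Sall1. Of 25 tested genes of a microglia signature, 6 were higher and 2 lower, with a median of 0.05. P2ry12 read 84.1, 59.3 and 123 CPM in the iPSC-derived and 97.2, 92.4 and 86.6 CPM in the bone marrow-derived libraries (-0.05 ± 0.25, edgeR adjusted p = 0.94). Cx3cr1 read 890.1, 764 and 1075 CPM against 1100.3, 1146 and 1251 CPM (-0.36 ± 0.37), and Fcrls 3993, 2378 and 4373 CPM against 3788, 4203 and 3869.9 CPM (-0.14 ± 0.25). None of these passed the test, and the sources overlapped for P2ry12 and Fcrls. The standard errors limit how small a difference could have been detected. Tmem119 read 97.6, 135 and 62.8 CPM against 162, 144 and 162 CPM (-0.66 ± 0.37), also not called. For Cx3cr1 and Tmem119 every iPSC-derived library nonetheless lay below every bone marrow-derived one. Of all tested genes, 26.1% had no overlap in either direction, called or not. Gpr34 was uneven in the iPSC-derived cells, at 129.8, 25.96 and 269.9 CPM against 187, 193 and 228 CPM (-0.51 ± 0.51, not called). Sall1 stayed below 5 CPM in all 6 libraries, at 0, 4.26 and 4.35 CPM against 0.802, 1.09 and 0.09 CPM, and Siglech had no count in the iPSC-derived libraries and 13 counts, all in replicate 1, in the bone marrow-derived ones.

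Among the signature genes that differed, Sall3 read 18.2, 28.4 and 18.1 CPM against 0.702, 3.37 and 3.33 CPM (3.12 ± 0.62, edgeR adjusted p = 0.0013), Crybb1 3.12, 1.23 and 12.3 CPM against 0.301, 0.496 and 0.27 CPM (3.92 ± 0.83) and Pros1, a bridging ligand for dying cells, 205, 192 and 176 CPM against 121, 99.05 and 97.6 CPM (0.85 ± 0.19). None of these 3 overlapped between the groups. Selplg, the ligand of P-selectin, was lower at 122, 73.5 and 125 CPM against 231, 241 and 247 CPM (-1.17 ± 0.15). Olfml3 (1.03 ± 0.30) was called with all libraries but not without any 1 of 5 of them, all but iPSC-derived replicate 3 (edgeR adjusted p from 0.055 to 0.13). Tgfbr1 (-0.53 ± 0.16) was not called without any 1 of iPSC-derived replicates 2 and 3 and bone marrow-derived replicates 1 and 2 (edgeR adjusted p from 0.063 to 0.18), and Golm1 (0.90 ± 0.24) not without iPSC-derived replicate 3 (0.058) or bone marrow-derived replicate 2 (0.06).

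Genes that mark macrophages entering the brain from the marrow gave 2 higher and 4 lower of 20 tested, with a median of -0.71. The higher ones were Apoe, given above, and Lpl, the lipoprotein lipase, at 1644, 1318 and 2047 CPM against 655, 772 and 675 CPM (1.25 ± 0.23). Clec12a, an inhibitory lectin, was lower, at 99.2, 105 and 143 CPM against 317, 432 and 355 CPM (-1.67 ± 0.20, edgeR adjusted p = 2.2e-06), beside Ccr2 and Cd74. Ms4a7, often used as the leading marker of such cells, overlapped at 806, 735 and 998 CPM against 775, 1023 and 969 CPM (-0.12 ± 0.24, not called). The macrophage granule enzyme Lyz2 was uneven in the iPSC-derived cells, at 14621, 25415 and 5688 CPM against 16959.9, 21259.6 and 19367 CPM (-0.33 ± 0.40, not called). Of 14 border macrophage markers, 3 were lower (Cd163, Cbr2 and Pf4) and none higher, or 5 without TMM factors. Pf4, a platelet factor also made by border macrophages, read 27.1, 14.2 and 88.6 CPM against 257, 259 and 329 CPM (-2.70 ± 0.57). Mrc1, the mannose receptor, overlapped at 1298, 568 and 2415 CPM against 1324, 1266 and 1131 CPM (0.20 ± 0.32, not called).

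Macrophages that meet lipid-rich debris take on a state described first in diseased brain, with Apoe, Spp1, Lpl and lysosomal proteases raised. Of 24 tested genes of that disease-associated list, 10 were higher and 3 lower (median 0.53). Beside Spp1, Apoe and Lpl, the higher members included the trophic factor Igf1, at 1159.96, 1441 and 990.01 CPM against 493, 408 and 407 CPM (1.46 ± 0.16, edgeR adjusted p = 9.1e-07), and the beta-glucan receptor Clec7a, at 180.004, 183 and 58.6 CPM against 44.4, 39.1 and 46.8 CPM (1.69 ± 0.33). Gpnmb, a lysosome-associated glycoprotein, read 4545, 4780.2 and 4241 CPM against 3321, 2502 and 2334 CPM (0.73 ± 0.16). In all 3 the groups did not overlap. The list did not move as a block, since Itgax (CD11c) was lower at 2.64, 1.14 and 3.54 CPM against 30.7, 25.1 and 18.4 CPM (-3.34 ± 0.39), and so was Cst7, a cystatin, at 5.75, 5.97 and 8.6 CPM against 43.5, 54.5 and 56.1 CPM (-2.92 ± 0.31). Trem2, the lipid-sensing receptor on which the state depends, overlapped at 949.9, 749 and 1333 CPM against 799.8, 1115 and 1016 CPM and was not called (0.05 ± 0.19).

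Of 40 tested lysosomal genes, 20 were higher and 3 lower, with a median of 0.52. The number higher was 16 to 19 without any 1 library and 9 without TMM factors. Ctsl, a cysteine protease, read 1432, 1078 and 1519.8 CPM in the iPSC-derived and 475, 614 and 533 CPM in the bone marrow-derived libraries (1.31 ± 0.14, edgeR adjusted p = 5.8e-07). Ctsf, another, read 120.2, 127 and 96.1 CPM against 29.9, 29.1 and 27.5 CPM (1.99 ± 0.19), and Lgmn, the asparagine-cutting legumain, 4764, 4173 and 5193 CPM against 2536, 2404 and 2201 CPM (0.98 ± 0.12). No iPSC-derived library overlapped the bone marrow-derived ones for these enzymes. Ctsz (0.82 ± 0.11), Tpp1 (0.74 ± 0.11) and Gusb (0.64 ± 0.11) were higher by smaller steps. The lower members were Ctsh, at 203, 234 and 92.97 CPM against 629, 671 and 659.5 CPM (-1.89 ± 0.27), Psap, the precursor of the saposins that help break down sphingolipids, at 2724, 2399 and 2739 CPM against 5565, 5351 and 4742 CPM (-0.99 ± 0.10), and Ctss. The letters CACGTG, shared by elements through which lysosomal genes are known to be coordinated, were in 10 of 31 lysosomal promoters, in 15.9% of 577 higher, 8.51% of 529 lower and 11.5% of 10618 tested genes.

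Cholesterol synthesis genes run from acetyl-CoA to cholesterol and are switched on together when sterols are low. Of 22 tested, 8 were higher and none lower (median 0.75), or 4 without TMM factors. Groups did not overlap for 16 of the 22, against 26.1% of all tested genes. Msmo1, a sterol demethylase, read 211, 169.6 and 217 CPM against 78.2, 71.9 and 79.8 CPM (1.38 ± 0.18, edgeR adjusted p = 5.6e-06). Sqle, the squalene epoxidase that controls entry to the sterol steps, read 96.2, 80.8 and 109 CPM against 42.1, 33.5 and 44.6 CPM (1.25 ± 0.21), and Hmgcs1, at the start of the pathway, 156, 137 and 181 CPM against 88.1, 69.5 and 91.8 CPM (0.92 ± 0.20). Among 22 tested LXR targets and lipid handling genes, 6 were higher and 2 lower. Plin2, which coats lipid droplets, read 1827, 1649 and 1941 CPM against 608, 470.4 and 424 CPM (1.85 ± 0.18), with a wide gap between the groups. Pltp, the phospholipid transfer protein, was lower at 329, 222 and 330.3 CPM against 767, 725 and 631 CPM (-1.27 ± 0.22). None of 30 oxidative phosphorylation genes and none of 30 ribosomal protein genes was called in either direction by edgeR, and both lists had medians close to 0 (0.09 and -0.12).

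Some genes are expressed in fetal and early embryonic cells and shut down later, among them Lin28b, an RNA-binding protein that blocks the maturation of let-7 microRNAs, and the IGF2 mRNA-binding proteins, which let-7 represses. Of 25 tested imprinted and fetal genes, 11 were higher and none lower, with a median of 1.04. The count was 11 with TMM, with the DESeq2-type size factors and without scaling, and 10 or 11 without any 1 library. Lin28b read 4.19, 8.05 and 2.53 CPM in the iPSC-derived libraries and was not counted in any bone marrow-derived one, a level at least 52.4-fold higher against a floor of 3 counts over the group. Igf2bp3 read 46.7, 65.3 and 59.2 CPM against 8.62, 9.91 and 10.3 CPM (2.57 ± 0.18, edgeR adjusted p = 3.6e-10), Igf2bp1 19.9, 34.02 and 39.05 CPM against 4.31, 3.87 and 4.59 CPM (2.86 ± 0.37) and Igf2bp2 47.9, 48.6 and 36.7 CPM against 1.7, 4.16 and 3.33 CPM (3.85 ± 0.58). The 3 binding proteins were well above the bone marrow-derived range in every iPSC-derived library. Hmga2, a chromatin protein of growing embryonic tissue, read 3.36, 6.92 and 8.3 CPM against 0.1, 1.78 and 0.81 CPM (2.77 ± 0.65), and the B lineage and haematopoietic factor Arid3a 47.5, 50.98 and 57.9 CPM against 22.7, 18.05 and 17.6 CPM (1.42 ± 0.21). Hmga2 was not called in the fit of the 6 libraries alone (edgeR adjusted p = 0.08). Fibroblast markers also summed to a higher level in the iPSC-derived libraries (265 to 477 CPM over 6 genes against 90.5 to 189 CPM), and their part in this list was not tested.

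The let-7 sequences and their sites are printed because 6 of these 11 genes hold a let-7 seed site. The list was written to include genes that let-7 is known to repress, such as the IGF2 mRNA-binding proteins. That number therefore partly follows from the choice of the list. In RefSeq, 9 mature mouse let-7 microRNAs share the seed GAGGUAG at bases 2 to 8 (capitals); 3 are shown.
mmu-let-7a-5p: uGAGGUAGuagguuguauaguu
mmu-let-7g-5p: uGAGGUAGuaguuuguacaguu
mmu-let-7i-5p: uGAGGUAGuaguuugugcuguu
The 8-letter site that pairs with the seed is CTACCTCA. It was searched in the longest annotated 3' UTR (GENCODE, GRCm38) of 12745 tested genes and found in 479, or 3.76%. It was present in Lin28b, Igf2bp1 (3 sites), Igf2bp2, Igf2bp3, Hmga2 and Arid3a, and in none of the other fetal list genes with a UTR, such as Dlk1, Plagl1, Sgce, Snrpn and Impact. The first site of each, in capitals, reads as follows.
Lin28b: acccgggcgggaagtCTACCTCAtgcaagc
Igf2bp1: gctgtgcgaagtaaaCTACCTCAaggtgtg
Igf2bp2: acacacaaataaaagCTACCTCAggtgttt
Igf2bp3: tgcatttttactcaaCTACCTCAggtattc
Hmga2: gccgacattcaatttCTACCTCAgcatcag
Arid3a: aaggcaagtttctttCTACCTCAggtcttt
Over all genes, 38 of 718 higher genes (5.29%) and 22 of 657 lower genes (3.35%) held the site. The median difference was 0.07 over the 479 tested genes with the site and 0.00 over all 12745. The libraries do not measure mature microRNAs, and no test was made of the sites.

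Imprinted genes, expressed from 1 parental copy, made up the other higher members. Sgce, a sarcoglycan, read 74.4, 58.8 and 78.4 CPM against 5.81, 7.04 and 5.58 CPM (3.52 ± 0.41, edgeR adjusted p = 1.9e-06), and Snrpn, a splicing protein whose transcript overlaps another gene, 17.7, 21.2 and 16.1 CPM against 2.61, 3.87 and 4.41 CPM (2.33 ± 0.33). Dlk1, a fetal Notch-like ligand, had 215 counts over the iPSC-derived libraries and 2 over the bone marrow-derived ones, a ratio of 116 with a 95% counting interval from 31.8 to 968. Plagl1 was higher (2.77 ± 0.68) but was not called without bone marrow-derived replicate 2 (edgeR adjusted p = 0.051) or 3 (0.06). Of 5 tested pluripotency genes, 1 was called, Pou5f1 (OCT4), with 1.56, 3.98 and 5.77 CPM against no count in the bone marrow-derived libraries, at least 40.4-fold higher. Hox genes, which pattern the body axis and are used by adult blood progenitors, were nearly absent: 5 of 33 Hox and Meis genes passed the low-count filter. Hoxb4 had 29 counts over the bone marrow-derived libraries and none over the iPSC-derived ones, at least 8.92-fold lower in the latter, though its call was lost without iPSC-derived replicate 1, 2 or 3 or bone marrow-derived replicate 1 (edgeR adjusted p from 0.053 to 0.069). Hoxa9 had 6 counts, all in bone marrow-derived replicate 1.

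Immediate early genes are transcribed within minutes of a stimulus. Of 19 tested, 10 were higher and none lower, with a median of 1.04. Atf3 read 770.3, 835 and 171 CPM in the iPSC-derived and 86.1, 77.4 and 95.1 CPM in the bone marrow-derived libraries (2.78 ± 0.40, edgeR adjusted p = 8e-05), Fosb 156, 318 and 62.7 CPM against 40.6, 26.5 and 48.6 CPM (2.21 ± 0.47) and Btg2 848, 1689 and 239.9 CPM against 283, 196 and 234 CPM (1.96 ± 0.45). In each the third iPSC-derived library was the lowest of its group, above the bone marrow-derived range for Atf3 and Fosb and within it for Btg2. Btg2 was not called without iPSC-derived replicate 2 (edgeR adjusted p = 0.065) or in the 6 libraries alone (0.092). The groups did not overlap for 5 of the 19 genes, a share close to the 26.1% of all tested genes, called or not. Fos read 1500.3, 2229 and 955 CPM against 804, 676 and 806 CPM (1.04 ± 0.30) and was not called without any 1 library other than iPSC-derived replicate 3 (edgeR adjusted p from 0.065 to 0.19). The count of 10 fell to 4, 2, 4, 3 and 3 without iPSC-derived replicate 1 or 2 or bone marrow-derived replicate 1, 2 or 3, was 12 without iPSC-derived replicate 3, and was 3 without TMM factors. The cause of the spread among the iPSC-derived libraries was not tested.

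Genes of mitosis and chromosome segregation went the other way. Of 25 tested, 7 were lower and none higher (median -1.04), and 19 had non-overlapping groups with the iPSC-derived cells below. The share of all tested genes without overlap, in either direction, was 26.1%. Top2a, the topoisomerase that untangles chromosomes, read 42.1, 69.2 and 113 CPM against 209, 199.7 and 238 CPM (-1.52 ± 0.37, edgeR adjusted p = 0.0095). Mki67, the standard marker of dividing cells, read 30.7, 40.6 and 87.4 CPM against 125, 127 and 167 CPM (-1.40 ± 0.34), and Prc1, which organises the spindle midzone, 9.23, 9.57 and 20.3 CPM against 52.9, 55.4 and 61.2 CPM (-2.11 ± 0.41). The third iPSC-derived library was the highest of its group for all 3. The number lower was 1 without iPSC-derived replicate 1, 2 without replicate 2, 14 without replicate 3 and 4 without bone marrow-derived replicate 1, against 13 with limma-voom and 15 without the low-count filter. Mki67 was not called without iPSC-derived replicate 1 (edgeR adjusted p = 0.061) or 2 (0.057), nor Top2a without replicate 1 (0.061). Of 20 tested replication genes, 2 were lower, against 4.74% of all genes. Cdkn1a, the p21 inhibitor of cell cycle kinases, was higher, at 379, 362 and 435 CPM against 192, 219.9 and 212 CPM (0.92 ± 0.17), and the p53 target Zmat3 too (1.05 ± 0.19), while Cdkn1b was lower (-1.63 ± 0.35).

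**Figure D4:**
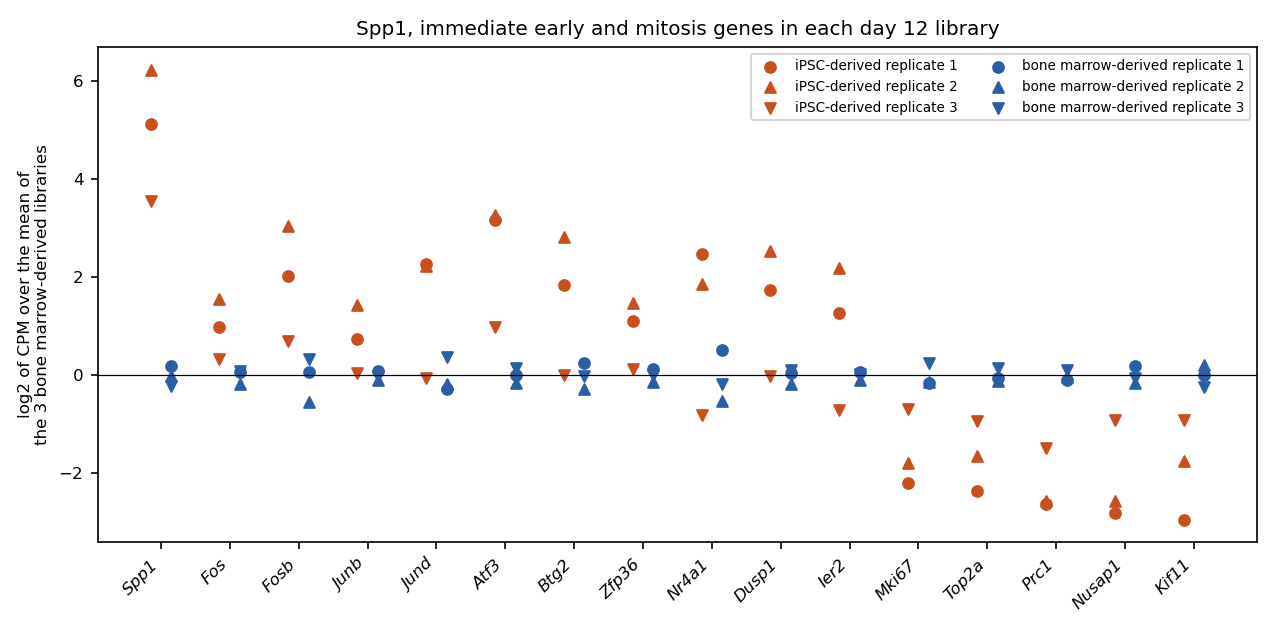
Levels of Spp1, 10 immediate early genes and 5 mitosis genes in each day 12 library, as log2 of CPM over the mean of the 3 bone marrow-derived libraries (y axis), with orange for iPSC-derived and blue for bone marrow-derived libraries and a marker shape for each replicate. Among the iPSC-derived libraries, replicate 3 is the lowest for Spp1 and the immediate early genes shown and the highest for the mitosis genes shown, and the bone marrow-derived libraries lie close to 0.

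Chemokine receptors guide the movement of macrophages. Of 26 tested chemokine and cytokine receptors, 9 were lower and none higher (median -0.41), or 5 without bone marrow-derived replicate 1. Ccr1 read 55.4, 20.4 and 69.6 CPM in the iPSC-derived and 470.01, 387 and 449.8 CPM in the bone marrow-derived libraries (-3.17 ± 0.42, edgeR adjusted p = 2.7e-05). Il7r, a cytokine receptor of lymphoid and fetal myeloid cells, read 0.36, 0.0948 and 0.809 CPM against 16.8, 15.4 and 11.9 CPM (-5.09 ± 0.56). The groups were far apart in both. Csf1r, the receptor that keeps macrophages alive, was not called although its groups did not overlap, at 2921, 3204 and 2752 CPM against 4138, 3794 and 3711 CPM (-0.39 ± 0.18, edgeR adjusted p = 0.19).

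Of 19 tested chemokine ligands, 3 were higher and 4 lower (9 lower without the low-count filter and 7 with limma-voom). Ccl3 and Ccl4, inflammatory chemokines made by macrophages, read 272, 243 and 197 CPM against 53.5, 56.3 and 70.1 CPM (1.99 ± 0.29) and 212, 242 and 86.8 CPM against 43.7, 41.8 and 45.2 CPM (2.05 ± 0.37). Ccl9 was higher too, at 633, 847 and 368 CPM against 174, 228 and 182 CPM (1.66 ± 0.28). The monocyte attractant Ccl8 was lower, at 7.91, 2.56 and 3.74 CPM against 86.4, 39.8 and 38.6 CPM (-3.54 ± 0.58), with Cxcl16 (-1.05 ± 0.21), Ccl6 (-1.10 ± 0.20) and Pf4. Of 28 tested inflammatory NF-kB targets, 4 were higher and 3 lower, or 8 and 6 without the low-count filter (median 0.22). Tnf was not called although its groups did not overlap, at 58.96, 94.3 and 57.4 CPM against 48.1, 51.4 and 49.02 CPM (0.50 ± 0.30), and Il1b ranged widely in the iPSC-derived cells, at 27.4, 169.8 and 4.35 CPM against 32.8, 31.6 and 25.9 CPM (1.16 ± 0.82, not called). Clec4e (Mincle), a receptor for mycobacterial glycolipid, was lower at 3.6, 2.46 and 4.75 CPM against 61.5, 68.9 and 51.8 CPM (-4.07 ± 0.46).

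Of 20 tested complement genes, 4 were higher and 7 lower, against 5.03% and 4.74% of all genes. C2, the protease that forms the classical pathway convertase, read 47.2, 32.3 and 23.5 CPM against 0.601, 0 and 0.9 CPM (6.03 ± 0.74, edgeR adjusted p = 6.4e-06), and the anaphylatoxin receptors C5ar1 and C3ar1 read 1181, 1438 and 763 CPM against 405, 494 and 418 CPM (1.36 ± 0.19) and 2664, 2978 and 2205 CPM against 1401, 1233 and 1155 CPM (1.05 ± 0.14). C3, the central component, was lower at 41.6, 49.3 and 21.5 CPM against 107, 90.03 and 80.1 CPM (-1.30 ± 0.32). Cd93, a receptor linked to clearance of dying cells, was lower at 26.1, 36.01 and 33.1 CPM against 489, 415 and 416 CPM (-3.79 ± 0.25), the largest difference among the lower members. C1qa, part of the recognition molecule C1q, was not called, at 2969, 2758 and 3129.7 CPM against 1846, 2773 and 2379 CPM (0.34 ± 0.19).

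Receptors for dying cells and antibodies gave 7 higher and 4 lower of 29 tested, and the number lower moved to 2 without iPSC-derived replicate 2 or bone marrow-derived replicate 2 and to 7 without iPSC-derived replicate 3. Gas6, the ligand that bridges dying cells to the receptors TYRO3, AXL and MERTK, was higher, at 2639.9, 2653 and 2646 CPM against 1328, 1141 and 1099 CPM (1.15 ± 0.19). Fcgr3, an activating antibody receptor, read 1337, 1184 and 1434 CPM against 638, 832 and 738 CPM (0.84 ± 0.15), and Fcgrt, the neonatal Fc receptor that recycles antibody, 395, 322 and 608 CPM against 170.001, 193 and 197 CPM (1.24 ± 0.17, edgeR adjusted p = 1.3e-05). All 3 had non-overlapping groups. Of 17 Toll-like receptors and partners, 2 were higher, Tlr4, which senses endotoxin (0.84 ± 0.17), and Tlr7, which senses single-stranded RNA (0.99 ± 0.20), and 1 was lower. Of all genes, 5.03% were higher and 4.74% lower. Among 20 C-type lectins and Siglecs, 2 were higher and 4 lower (7 without the low-count filter), Clec10a among the latter at 1.56, 0.474 and 1.31 CPM against 11.4, 10.01 and 7.47 CPM (-3.13 ± 0.51).

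Integrins, the receptors that fasten cells to matrix and to each other, gave 1 higher (Itgb3) and 5 lower of 19 tested. The shares of all genes were 5.03% higher and 4.74% lower. Itgam read 162, 117 and 172 CPM against 299, 369 and 308 CPM (-1.11 ± 0.17, edgeR adjusted p = 4.6e-05), and the lower members also included its beta2 partner Itgb2, with Itgax, Itgb7 and Itgb5, the last of which was not called without bone marrow-derived replicate 2 (edgeR adjusted p = 0.058). Among 19 matrix proteases and inhibitors, 2 were higher and 5 lower, or 3 lower without iPSC-derived replicate 1. Mmp14, a membrane-bound collagenase, read 30.4, 41.9 and 20.8 CPM against 129, 137 and 150.1 CPM (-2.16 ± 0.45), and the gelatinase Mmp2 9.35, 10.04 and 22.5 CPM against 99.8, 58.9 and 89.5 CPM (-2.57 ± 0.41), both below the bone marrow-derived range in every iPSC-derived library.

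Growth and trophic factors gave 6 higher and 2 lower of 18 tested (median 0.68). Besides Igf1 and Spp1, Pdgfb, a mitogen of mesenchymal cells, read 26.8, 32.7 and 38.04 CPM against 11.5, 17.4 and 11.2 CPM (1.28 ± 0.29). Of 23 tested TGF-beta response genes, 3 were higher and 5 lower. Bambi, a decoy receptor, read 51.3, 45.7 and 37.03 CPM against 4.21, 9.22 and 5.76 CPM (2.80 ± 0.32, edgeR adjusted p = 1e-06), whereas Pmepa1, a feedback inhibitor of the same pathway, read 16.9, 27.01 and 21.04 CPM against 80.1, 90.8 and 114 CPM (-2.13 ± 0.36). Tgfbi, a secreted target of the pathway, was lower at 185, 126 and 117 CPM against 461, 495 and 400.2 CPM (-1.67 ± 0.31). The inhibitors Bambi and Pmepa1 thus differed in opposite directions, each without overlap. Of 30 macrophage transcription factors, 5 were higher (8 without the low-count filter) and 1, Mef2a, lower (-0.64 ± 0.18), though Mef2a was not called without iPSC-derived replicate 2 or 3 or bone marrow-derived replicate 1 (edgeR adjusted p from 0.082 to 0.12). The shares of all genes were 5.03% higher and 4.74% lower. Runx1, a master regulator of blood formation, read 239.7, 270.2 and 155 CPM against 133, 109 and 91.1 CPM (1.00 ± 0.18), Klf6 592, 576 and 397 CPM against 226, 244 and 247 CPM (1.13 ± 0.20) and Bhlhe41, a repressor active in several resident macrophages, 437, 643 and 275 CPM against 197, 209 and 234 CPM (1.08 ± 0.19).

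Markers of other cell types were low but not always absent. Of the 6 fibroblast markers whose sums are given with the fetal genes, 1 was called higher and none was at 0 in either source. Col1a2, a chain of type I collagen, read 60.6, 65.9 and 94.6 CPM against 19.1, 11.6 and 12.95 CPM (2.34 ± 0.68), and Col1a1 108, 65.2 and 165 CPM against 27.4, 17.9 and 23.6 CPM (2.30 ± 0.86, not called). Col1a2 was not called without any 1 of the 6 libraries (edgeR adjusted p from 0.055 to 0.13), nor by DESeq2. Their part in the matrix protease and TGF-beta results was not tested either. Astrocyte markers summed to 80.1 to 96.2 CPM against 56.8 to 82.7 CPM over 6 genes, neuron markers to 11.03 to 20.9 CPM against 16.9 to 25.1 CPM over 7 genes and oligodendrocyte markers to 93.8 to 211 CPM against 86.4 to 112 CPM over 6 genes, with none called. Mog was at 0 in the bone marrow-derived libraries. The 4 lymphocyte and the 4 granulocyte markers each stayed below 2 CPM in sum in all 6 libraries. The longer lists of 15 genes each summed to more, 38.6 to 59.2 CPM against 49.4 to 82.3 CPM for lymphocyte genes and 38.0 to 57.6 CPM against 76.1 to 87.2 CPM for granulocyte and mast cell genes, with 3 members of each tested and 1 lower. The lower ones were Cd79b, a part of the B cell receptor, at 4.91, 3.13 and 1.42 CPM against 15.9, 17.4 and 18.3 CPM (-2.46 ± 0.49, edgeR adjusted p = 0.0015), and Csf3r, the receptor for granulocyte colony-stimulating factor, at 39.1, 37.8 and 56.9 CPM against 82.1, 72.9 and 79.6 CPM (-0.81 ± 0.22). Csf3r was not called without iPSC-derived replicate 1 or 2 or bone marrow-derived replicate 1 or 3 (edgeR adjusted p from 0.05 to 0.089). The part of either list in the other results was not tested. Dendritic cell markers summed to 9.19 to 23.01 CPM against 1.8 to 5.51 CPM over 4 genes, with 1 called (Zbtb46) and Flt3 and Clec9a at 0 in both sources. Zbtb46 (2.19 ± 0.70) was not called without any 1 library other than iPSC-derived replicate 2 (edgeR adjusted p from 0.063 to 0.19) or without TMM factors (0.074). Pluripotent cell markers summed to 1.56 to 14.3 CPM against 0 to 1.89 CPM over 4 genes, with 1 called (Pou5f1). The longer list of 14 pluripotency genes summed to 2.996, 4.74 and 37.1 CPM against 1.9, 3.37 and 4.77 CPM. Its iPSC-derived sum was thus far higher in replicate 3 than in the others, and the part of such cells in other results was not tested. The neural progenitor gene Nes was higher (1.79 ± 0.38), as was the glutamine synthetase gene Glul, which macrophages also express, at 359, 264 and 258 CPM against 84.9, 81.1 and 75.3 CPM (1.87 ± 0.17). Ddx3y, on the Y chromosome, was present in all 6 libraries and lower in the iPSC-derived ones, at 49.97, 34.1 and 30.1 CPM against 92.4, 71.2 and 102 CPM (-1.22 ± 0.29). Xist, on the X chromosome, did not pass the low-count filter. It had 0, 0 and 10 counts in the iPSC-derived and 24, 1 and 4 counts in the bone marrow-derived libraries. The origin of these reads was not tested.

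Further lists are given by their counts, beside the 5.03% higher and 4.74% lower of all genes. Glycolysis and hypoxia genes gave 2 higher and 3 lower of 30, ATF4 and unfolded protein response genes 2 and 1 of 22, NRF2 and glutathione genes 0 and 2 of 19, iron and heme genes 3 and 2 of 16, and purinergic signalling genes 0 and 1 of 16. The lower glycolysis genes numbered 1 without bone marrow-derived replicate 1 and 5 without TMM factors, and the higher iron genes 5 without iPSC-derived replicate 2 and 7 without the low-count filter. Psat1, an enzyme of serine synthesis, was higher at 125, 80.1 and 179.7 CPM against 38.6, 37.97 and 35.7 CPM (1.78 ± 0.26, edgeR adjusted p = 3.9e-05), and Alas1, which starts heme synthesis, at 168, 190.2 and 158 CPM against 107, 105 and 86.1 CPM (0.79 ± 0.14). Hpgd, which breaks down prostaglandins, read 398, 701 and 77.5 CPM against 44.5, 37.6 and 37.7 CPM (3.30 ± 0.50), and Ptgs2, which makes them, read 3.48, 12.5 and 0.91 CPM against no count in the bone marrow-derived libraries, at least 61.4-fold higher. In monocyte and granule genes, 2 of 16 were lower, Ccr2 and Napsa.

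The same contrast at earlier days, from other libraries, shows which day 12 differences were there before. Without co-culture, at day 0, 5401 genes differed (36%), against 2679 (17.9%) at day 3 and 1982 (13.2%) at day 6. The median absolute difference over all genes was 0.734 at day 0, 0.495 at day 3, 0.437 at day 6 and 0.407 at day 12. Of the 754 genes higher at day 12, 430 were also higher at day 6 (57.0% of the day 12 and 41.0% of the day 6 genes), and of the 711 lower, 444 were also lower at day 6 (62.4% and 47.5%). At day 0, 409 of the 754 (54.2% of the day 12 and 14.5% of the day 0 genes) were already higher and 82 were lower. In all 4 days 261 genes were higher and 233 lower. Genes called at day 12 and at no earlier day numbered 123 higher and 87 lower.

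Tests of the change itself called 3008 genes (20.1%) between day 0 and day 12, of which 2531 had a smaller and 477 a larger difference at day 12. Between day 3 and day 12 the test called 478 genes (3.19%), 235 upward (1.57%) and 243 downward (1.62%), and between day 6 and day 12 it called 35 (0.233%), 29 upward (0.193%) and 6 downward (0.04%), with 1687 at an unadjusted p below 0.05. The last of these counts fell to 8 without bone marrow-derived replicate 3, 16 without iPSC-derived replicate 1 and 21 without bone marrow-derived replicate 1, and rose to 163 without iPSC-derived replicate 3. Among the 35 were the class I genes H2-K1 and H2-T23, less far below 0 at day 12 than at day 6. For H2-K1 the difference was -2.20 at day 6 and -1.43 at day 12. Of the others, 2 were looked up after their values were seen: Clec4a1, a C-type lectin, moved from -2.84 to -0.35, and the glycolytic enzyme Aldoa from -0.67 to 0.49.

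**Figure D5:**
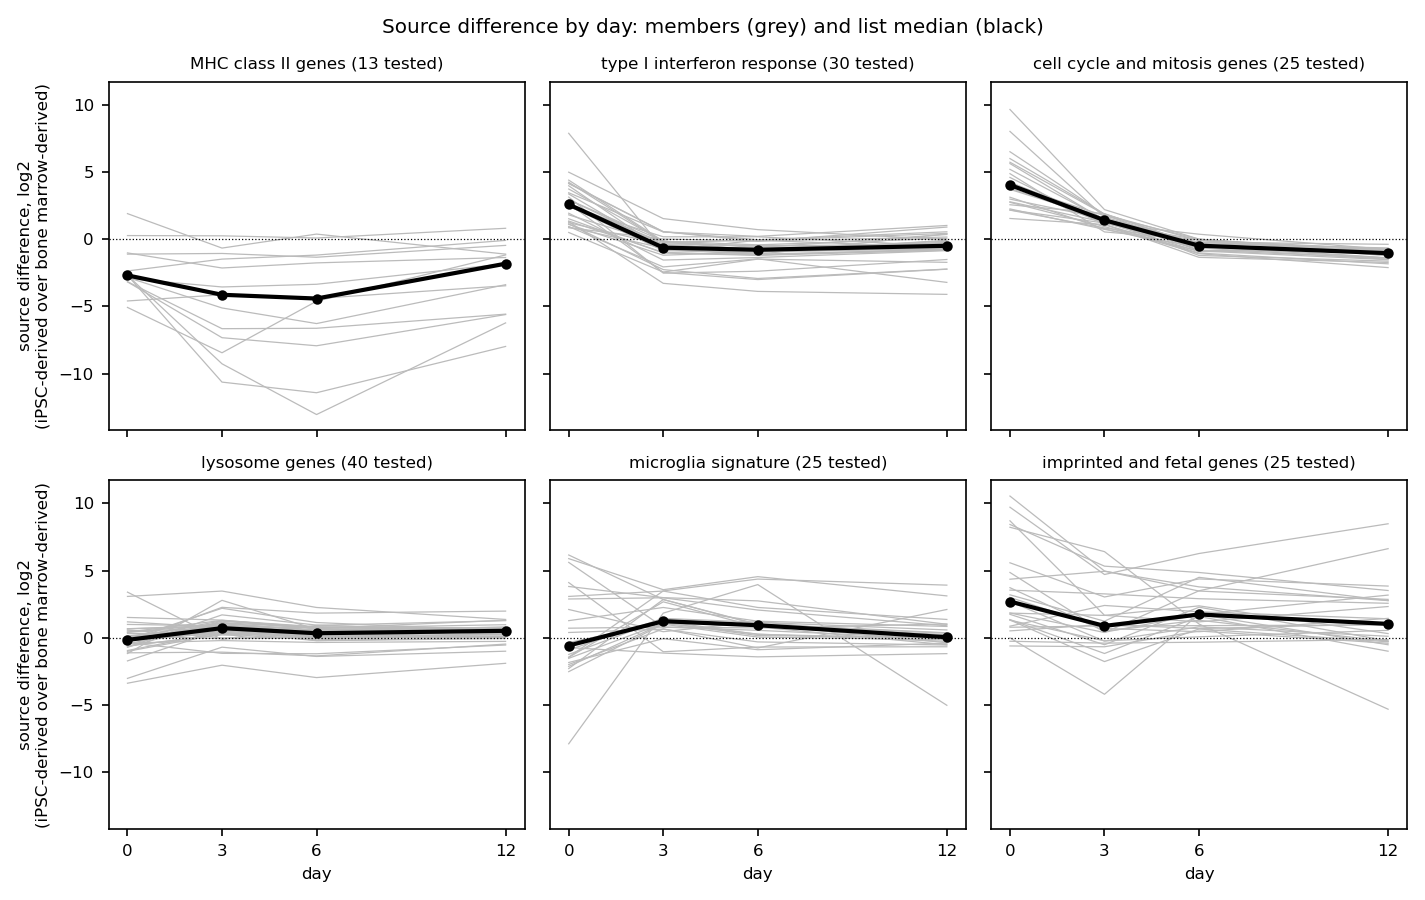
Log2 difference of iPSC-derived over bone marrow-derived cells (y axis) at days 0, 3, 6 and 12 (x axis) for 6 gene lists, with a grey line for each tested member and a black line for the list median. The interferon and mitosis lists start above 0 at day 0 (medians 2.58 and 4.03) and end below it at day 12, while the class II list is below 0 at every day.

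The lists differed in their course over the days. Of all genes, 18.9% were higher and 17.1% lower at day 0, 8.94% and 8.92% at day 3, and 6.99% and 6.23% at day 6. Interferon response genes were higher in the iPSC-derived cells at day 0 in 26 of 30, lower in 12 at day 3, 16 at day 6 and 8 at day 12, and 28 of 30 had a called change between day 0 and day 12, all downward (11% of all genes were called in that direction). Oas3 went from 2.63 ± 0.36 at day 0 to -2.23 ± 0.36 at day 12. Mitosis genes were higher in 25 of 25 at day 0 and 13 at day 3, and 25 of 25 changed downward by day 12. Of 40 lysosome genes, 11 were higher and 10 lower at day 0, 26 and 4 at day 3, 14 and 4 at day 6 and 20 and 3 at day 12, and 16 changed upward by day 12 (9.07% of all genes). Class II genes were lower in 11 of 13 at day 0, 10 at day 3 and 10 at day 6, with medians of -2.69, -4.13 and -4.41. Fetal and imprinted genes were higher in 14, 9 and 13 of 25 at days 0, 3 and 6, with 7 changing downward between day 0 and day 12. Igf2bp1 averaged 82.6 ± 7.74 CPM in the iPSC-derived and 0.043 ± 0.0744 CPM in the bone marrow-derived cells at day 0, and 30.99 ± 9.93 CPM against 4.25 ± 0.364 CPM at day 12 (SD, n = 3). Lin28b was higher on all 4 days.

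Among single genes, Cx3cr1 had a difference of 6.16 ± 0.54 at day 0, 2.85 at day 3, 1.01 at day 6 and -0.36 ± 0.37 at day 12, a change of -6.52 ± 0.66 (edgeR adjusted p = 7.1e-07). At day 0 it averaged 90.9 ± 37.04 CPM in the iPSC-derived and 1.29 ± 1.29 CPM in the bone marrow-derived cells (SD, n = 3). By day 12 both sources stood above 700 CPM in every library. Tmem119 went from 4.11 ± 1.05 to -0.66 ± 0.37 (change -4.77 ± 1.11), and Apoe, lower in the iPSC-derived cells at day 0 (-1.57 ± 0.18), was higher at day 12 (change 2.85 ± 0.26, edgeR adjusted p = 2.8e-08). Spp1 was higher on every day, by 3.35 ± 0.42 at day 0 with an upward change of 2.00 ± 0.55 by day 12 (edgeR adjusted p = 0.013), and Ccr2 and Cd163 were lower on every day, with no called change from day 0 to day 12 for either (edgeR adjusted p = 0.071 and 0.21).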

How the data were processed

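RNA was extracted with a PicoPure kit, and libraries were made from 2 ng of total RNA by SMART-seq v2 and Nextera XT and sequenced as read pairs, per the labels' protocols. The deposited values are unnormalized gene counts that the authors made with featureCounts 1.5.0-p1, without strand, on GENCODE vM9 (mm10/GRCm38), per the file headers; STAR is named in the submitters' processing notes. Unstranded counts cannot tell overlapping antisense genes apart, and these protocols give no molecular identifiers, so duplicate reads count.

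All 24 libraries (5839316 to 11805478 counts) and 8 groups entered 1 fit in edgeR 4.0.16 (R 4.3.3), with TMM factors, filterByExpr (minimum count 10, minimum total 15; 15000 of 47643 genes kept) and robust quasi-likelihood tests of the day 12 source difference and of its change since days 0, 3 and 6. Of all rows, 419 matched no symbol (0.063% of counts). Floors are 3 counts over a group, and intervals are exact 95% counting intervals. The test was tried on simulated data. Alternatives were other scaling, filters, libraries left out, a replicate block, the 6 libraries alone, DESeq2 1.42.0 and limma 3.58.1. Promoters and let-7 came from RefSeq (GRCm38.p6).

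The members and the 48 gene lists were chosen with earlier results of these data known. Named are the 12 largest called differences in each direction (groups not overlapping, at least 20 CPM in the higher group, no predicted gene names), up to 3 members of each list with the lowest adjusted p in each direction, 30 fixed genes whatever their result, and the 6 largest changes from day 0 in each direction; some genes (B2m, Ciita, Ifit1, Ifit3, Rsad2, collagens, macrophage markers, let-7 site holders, and others given with their lists) were added after their values were seen. A few members of the lists are counted but not reported here by name.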

Additional observations from a re-analysis of the deposited data

Results flagged for a closer look

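Differences in the source effect between days were tested by interaction terms in edgeR, and 3 counts were noted: 3008 genes between day 0 and day 12, 478 between day 3 and day 12, and 35 between day 6 and day 12. The 12 genes with the largest changes from day 0 to day 12 by the naming rule follow, with the change in log2 and then mean ± SD CPM (n = 3) of iPSC-derived against bone marrow-derived libraries. Where 1 group is at or near 0, the fitted change depends on the prior count and is no bound.

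The source difference moved upward in 6 genes. Nxpe5, a neurexophilin-type protein of little known function, changed by 9.54, from 0 ± 0 against 86.7 ± 2.54 CPM at day 0 to 21.1 ± 18.4 against 178 ± 9.08 CPM at day 12. Bmp2, a bone morphogenetic protein, changed by 8.89, from 0.073 ± 0.0632 against 13.8 ± 2.41 CPM at day 0 to 38.8 ± 23.3 against 13.04 ± 1.59 CPM at day 12. Slc9a7, a sodium-proton exchanger, changed by 8.73, from 0 ± 0 against 26.2 ± 10.7 CPM at day 0 to 3.46 ± 1.86 against 15.4 ± 7 CPM at day 12. Pdgfc, a platelet-derived growth factor, changed by 8.31, from 0.146 ± 0.253 against 24.8 ± 5.14 CPM at day 0 to 29.7 ± 6.22 against 14.6 ± 2.69 CPM at day 12. Nr4a1, an early response nuclear receptor, changed by 7.9, from 0.364 ± 0.229 against 27.8 ± 5.96 CPM at day 0 to 34.6 ± 26.7 against 10.7 ± 4.05 CPM at day 12. Car2, carbonic anhydrase, changed by 7.34, from 0.328 ± 0.569 against 0.722 ± 1.06 CPM at day 0 to 20.8 ± 21.2 against 0.267 ± 0.38 CPM at day 12.

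It moved downward in 6 genes. Aqp9, a water and glycerol channel, changed by -12.39, from 37.98 ± 15.8 against 0 ± 0 CPM at day 0 to 0.135 ± 0.234 against 0.277 ± 0.322 CPM at day 12. Pimreg, a mitotic regulator, changed by -12.12, from 28.5 ± 9.41 against 0 ± 0 CPM at day 0 to 9.29 ± 9.82 against 20.2 ± 4.97 CPM at day 12. Flnc, the muscle filamin, changed by -11.84, from 248 ± 115 against 0.043 ± 0.0744 CPM at day 0 to 7.04 ± 1.59 against 5.76 ± 2.11 CPM at day 12. Ccnb2, a mitotic cyclin, changed by -10.65, from 77.4 ± 26.3 against 0.0821 ± 0.0714 CPM at day 0 to 25.99 ± 18.96 against 52.3 ± 11.8 CPM at day 12. Gpr141, an orphan receptor, changed by -10.19, from 22.5 ± 14.3 against 11.97 ± 4.28 CPM at day 0 to 0 ± 0 against 8.57 ± 4.15 CPM at day 12. Marco, a scavenger receptor, changed by -9.93, from 21.3 ± 14.5 against 0 ± 0 CPM at day 0 to 0.811 ± 1.14 against 0.528 ± 0.406 CPM at day 12.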

How the results depend on the processing

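The number of genes called between the sources at day 12, 1465, ranged from 1018 to 1888 over the other settings: 1466 with DESeq2-type size factors in edgeR, 1651 without scaling, 1880 without the low-count filter, 1548 with a minimum count of 30, 1018 in the 6 libraries alone, 1888 with DESeq2 and 1401 with limma-voom and group quality weights (added after seeing the data because the iPSC-derived libraries varied more). Leaving out 1 library at a time gave 1060 to 1610. Without scaling the split for the change from day 0 to day 12 moved from 1361 higher and 1647 lower to 846 and 2473. The change from day 3 to day 12 gave 478 genes, 947 without the low-count filter, 841 with DESeq2 and 315 to 835 leaving out 1 library. The change from day 6 to day 12 gave 35 genes, 22 without scaling, 612 without the filter, 58 with a minimum count of 30, 226 with DESeq2 and 8 to 163 leaving out 1 library. The cause of these moves was not tested. Deviations of same-numbered day 12 libraries of the 2 sources from their group means had correlations of 0.0223, -0.0255 and 0.00923. Values near 0 over all genes cannot show whether these libraries shared a date, partner culture or handling. With the replicate block, 1460 genes were called at day 12, 2969 for the change from day 0, 480 from day 3 and 38 from day 6. Of 246 named genes, 207 were called, 139 of these kept direction and call under every setting but limma-voom, and none reversed in any setting; calls were lost for 21 without scaling, 4 with the replicate block, 22 with limma-voom and 24 to 41 when 1 library was left out. The simulated data held 15000 genes and 3 libraries a source. A 2-fold difference was recovered for 51% of 100 changed genes and a 4-fold one for 84% of 100, so small differences were often not detectable. The changed genes were drawn only from those above a minimum mean level, and each gene had the same spread in every group. The recovery therefore does not cover low genes or the wider spread of the iPSC-derived libraries.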
